A study of Malus domestica with 6 samples.

Results

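A pair of genes of the AP2/ERF superfamily of transcription factors is described here in apple seeds, MDP0000848905, the putative ortholog of *A. thaliana* *EBP* (*ERF72*), and MDP0000258562, the likely ortholog of *A. thaliana* *CEJ1* (*DEAR1*). They are 2 of the 63517 gene models with deposited expression values and were picked by identifier. The names *EBP* and *CEJ1*, used below, are those that the paper gives to them. The paper singled out both for their increase in these same libraries, so the increase itself is given as a description and is no independent evidence. Seeds were dissected at 20 DAPF (days after petal fall) from untreated adult trees of the cultivar Golden Delicious. They came from a population of central fruits, the largest of each cluster, and a population of mid-sized lateral (L2) fruits. The paper describes the lateral fruits as younger and does not exclude an effect of developmental stage on its differences. Fruit position and stage of development cannot be told apart here. Each type of seed is represented by 3 libraries of total RNA from seeds of different fruitlets, and fruits were assigned by position and size, whatever their abscission potential. Nothing in the labels ties a library to single trees, so the spread between replicates is that between pools of seeds.

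ERF proteins carry an AP2 domain, with which many of them bind GCC-box or related elements in promoters, and a number of them act at the end of the ethylene signalling pathway. In *A. thaliana*, EBP belongs to the group of ERFs whose stability depends on oxygen, and it is known from responses to ethylene, low oxygen and oxidative stress. CEJ1 of *A. thaliana* has a DREB-type AP2 domain together with an EAR motif, a short motif of transcriptional repressors, and is known from responses to pathogens and cold. In apple, seeds of lateral fruits are of interest because these fruits are the more likely to be shed during the physiological drop, a process in which ethylene takes part.

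Expression is given as RPKM, reads scaled to the length of the gene model and to the mapped reads of the library, a scale on which levels of different genes can be set side by side. Between 14238640 and 37767724 whole reads could be recovered per library, with lateral replicate 1 the shallowest and lateral replicate 2 the deepest library. The column names place lateral replicates 1 and 2 in sequencing lane 8 and the other 4 libraries in lane 7, so only lateral replicate 3 can be compared with the central libraries within a lane. Reads mapping to more than 1 place are included in these values, so reads of near-identical ERF copies could be counted on either gene. In whole seeds a change in the share of a tissue that expresses a gene and a change in its RNA per cell cannot be told apart.

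*EBP* was a moderately expressed gene in central fruit seeds and among the most abundant in lateral fruit seeds. Central pools 1, 2 and 3 measured 9.99, 10.3 and 12.1 RPKM. Lateral pools 1, 2 and 3 measured 412, 172 and 278 RPKM. The groups were far apart, the lowest lateral library standing 14.2-fold above the highest central one. The ratio of the means was 26.6, from 10.8 ± 1.14 RPKM to 287 ± 120 RPKM (SD, n = 3 each). Behind these levels stand 203, 296 and 259 reads of the central pools, against 5543, 6128 and 6363 reads of the lateral pools. Counting error was therefore small: the 95% Poisson intervals of the lateral values ran from 401 to 423, from 167 to 176 and from 272 to 285 RPKM and did not overlap, whereas those of the 3 central values did. These intervals, like all those given here, cover counting error only.

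*CEJ1* was expressed at a lower level than *EBP* in both types of seed. Central pools 1, 2 and 3 measured 1.34, 1.08 and 1.27 RPKM, and lateral pools 1, 2 and 3 measured 11.9, 5.83 and 9.44 RPKM. Again no lateral library reached down to the central ones, the gap between the nearest libraries being 4.35-fold. The ratio of the means was 7.34, from 1.23 ± 0.134 RPKM to 9.04 ± 3.03 RPKM (SD, n = 3 each). Only 14, 16 and 14 reads came from the central pools, and 82, 107 and 111 from the lateral ones. With so few reads a central value was fixed only loosely, for example between 0.732 and 2.25 RPKM in central replicate 1 (95% Poisson interval). The highest of the 3 central upper bounds, that same 2.25 RPKM, was still below the lowest lateral lower bound, 4.78 RPKM in lateral replicate 2.

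**Figure D1:**
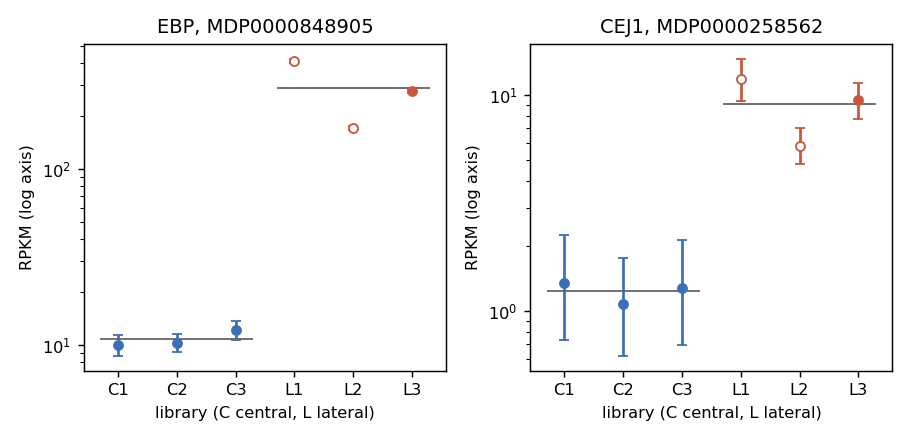
Expression of *EBP* (left) and *CEJ1* (right) in the 6 libraries, as RPKM on log axes with different ranges. Points are libraries (blue central, red lateral, open symbols lane 8), bars 95% Poisson intervals of the reads and grey lines group means; in both panels the 3 lateral points lie above all central points, with lateral replicate 1 highest and lateral replicate 2 lowest.

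The increase was measured with limma on log2(RPKM + 0.5) for the 37230 gene models whose mean reached 0.5 RPKM in one type of seed or both, a filter that *EBP* and *CEJ1* passed in each type. The log2 fold change was 4.59 for *EBP* (standard error 0.27, adjusted p = 7.9e-05) and 2.41 for *CEJ1* (standard error 0.24, adjusted p = 0.0011, both with Benjamini-Hochberg adjustment over all gene models tested). Both genes were thus among the gene models called higher in lateral fruit seeds, which made up 3.39% of those tested at the limits used (adjusted p up to 0.05, change of 1.5-fold or more). Lateral values that all lay above all central values, as for both genes, occurred in 12.4% of the gene models tested. The median log2 fold change of all gene models tested was -0.02. Without the added 0.5 RPKM the mean log2 difference was 4.65 for *EBP* and 2.82 for *CEJ1*, so this scale understates the increase of *CEJ1*.

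Both genes stayed called when any single library was left out. Over all 16 alternative fits the adjusted p (limma) ran from 2.9e-05 to 0.0036 for *EBP* and from 0.00040 to 0.026 for *CEJ1*. With the lane as a covariate the lateral side of the comparison is lateral replicate 3 alone, since lane 8 held no central library. In that fit the log2 fold change was 4.63 for *EBP* (adjusted p = 0.0036) and 2.52 for *CEJ1* (adjusted p = 0.026). Among the lateral libraries, a difference between the lanes cannot be told apart from a difference between the pools of seeds.

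The place of *EBP* among all gene models changed with the type of seed. By mean RPKM, 13680 gene models stood above it in central fruit seeds and 479 in lateral fruit seeds, the latter being 0.897% of the gene models with any read. Library by library its rank was 14194, 14348 and 12619 for central pools 1, 2 and 3. For lateral pools 1, 2 and 3 it was 289, 935 and 488. Even in the pool where it was lowest, *EBP* thus ranked among the leading 1.86% of the gene models above 0. For *CEJ1*, 29916 gene models stood above it in central fruit seeds (56.9% of those with any read) and 15283 in lateral fruit seeds (28.6%). Its rank in single libraries lay between 29061 and 30922 in central and between 13167 and 18775 in lateral fruit seeds.

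Gene models of like central level give a scale for these increases. A mean in central fruit seeds within 0.32 of that of *EBP* on the log2 scale was found in 3643 other gene models that were tested. Their median log2 fold change was -0.05, their 99th percentile 1.40 and their largest value 3.55, so that none of them rose as much as the 4.59 of *EBP*. Of these gene models 2.94% were called higher in lateral fruit seeds, close to the share among all those tested. When central replicate 2 was left out, 1 gene model of like level exceeded *EBP*. Seen from the lateral side, 266 gene models had a lateral mean within the same distance of that of *EBP*. Their median level in central fruit seeds was 276 RPKM, and none of them was as low there as *EBP*.

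The increase of *CEJ1* was large for its level but not the largest. Among 2935 gene models with a central mean like its own, 24 rose more (0.818%), all of them called higher, and the largest log2 fold change was 5.45. The median of these gene models was -0.02 and their 95th percentile 0.85. Of 3747 gene models with a lateral mean like that of *CEJ1*, 29 were as low as or lower than *CEJ1* in central fruit seeds, and their median there was 9.16 RPKM. Among all gene models tested, 19 had a larger log2 fold change than *EBP* and 235 a larger one than *CEJ1*.

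**Figure D2:**
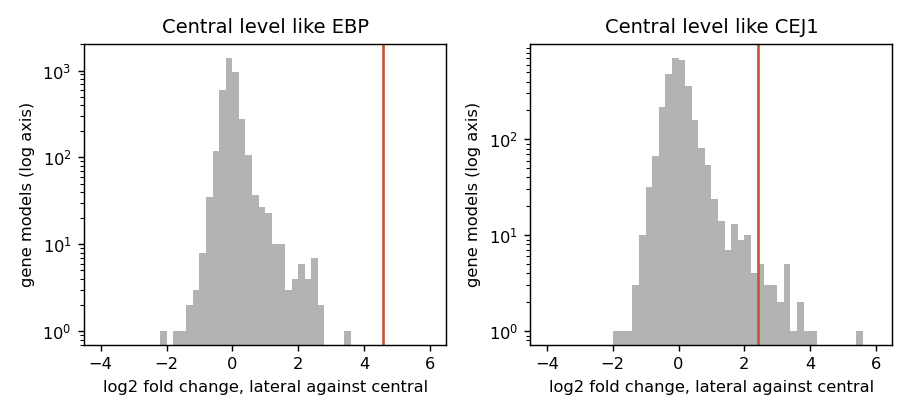
Log2 fold change (lateral against central, log2(RPKM + 0.5) scale) of the 3643 gene models with a central level like that of *EBP* (left) and of the 2935 like that of *CEJ1* (right), as counts on a log axis. The red line marks the gene itself, at 4.59 for *EBP*, beyond every bar, and at 2.41 for *CEJ1*, within the sparse right tail.

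The position of the pair within the whole set of gene models is shown by the plot of the means of both types of seed, in which *EBP* lies far from the diagonal at a high lateral level and *CEJ1* lies nearer to it at a lower one.

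**Figure D3:**
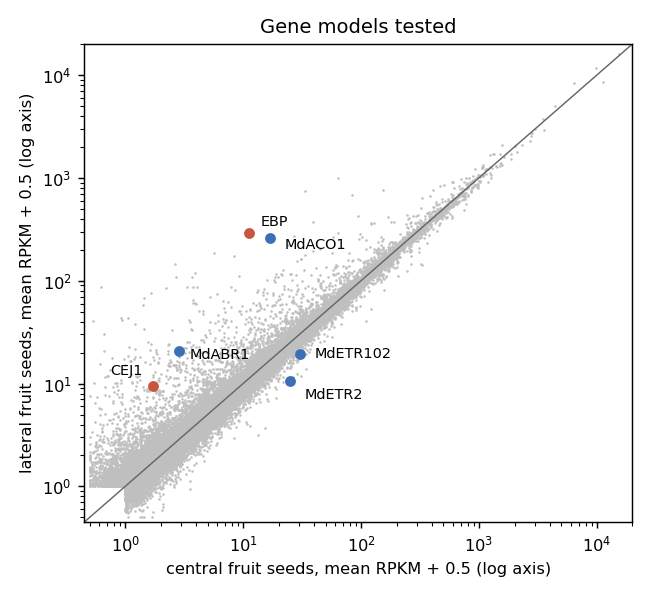
Mean RPKM + 0.5 in central (x) and lateral (y) fruit seeds, both on log axes, of the 37230 gene models tested (grey), with *EBP* and *CEJ1* in red and 4 ethylene and AP2/ERF genes in blue. *EBP* (10.8 and 287 RPKM) stands beside *MdACO1*, *CEJ1* (1.23 and 9.04 RPKM) below *MdABR1*, and *MdETR2* and *MdETR102* lie under the diagonal of equal levels.

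Although both genes increased, their proportion did not stay the same. In central pools 1, 2 and 3 the RPKM of *EBP* was 7.46, 9.52 and 9.52 times that of *CEJ1*. In lateral pools 1, 2 and 3 it was 34.8, 29.5 and 29.5 times that of *CEJ1*. Within a type of seed the ratios were close together, and the types did not overlap. The mean ratio was 8.83 ± 1.19 in central and 31.2 ± 3.06 in lateral fruit seeds (SD, n = 3 each). On the log2 scale the ratio was higher by 1.83 in lateral fruit seeds, which is 3.55-fold (2-sided exact permutation test, p = 0.1, the smallest that 3 libraries against 3 allow). The exact 95% intervals of the ratios (Clopper-Pearson on the reads of the 2 genes) lay between 4.34 and 17.7 in the central and between 24.3 and 43.8 in the lateral libraries. Counting error alone is thus smaller than the distance between the types of seed. Within the lane of the central libraries, lateral replicate 3 differed from the central mean by 1.75 on the log2 scale.

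**Figure D4:**
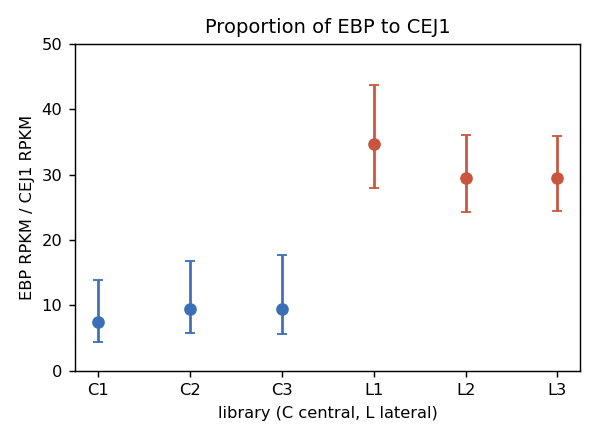
Ratio of *EBP* to *CEJ1* in RPKM for each library (blue central, red lateral; linear axis from 0), with exact 95% intervals from the reads of both genes. The intervals overlap among the libraries of each type, and all lateral intervals lie above all central ones.

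Among the lateral pools, by contrast, the pair kept nearly one proportion while the level of each gene changed about as much as that of the other. Lateral replicate 1 was highest and lateral replicate 2 lowest for both genes, with 2.40-fold between them for *EBP* and 2.03-fold for *CEJ1*. From lateral replicate 2 to lateral replicate 3 the step was 1.62-fold for each gene. From lateral replicate 3 to lateral replicate 1 it was 1.48-fold for *EBP* and 1.26-fold for *CEJ1*, and the intervals of *CEJ1* in these 2 libraries overlapped (7.76 to 11.4 and 9.42 to 14.7 RPKM). The lateral ratio of *EBP* to *CEJ1* therefore varied only 1.18-fold between its extremes.

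This order of the lateral pools was not particular to the pair. Of the 6 possible orders it was the most frequent one, found in 23.1% of all gene models tested and in 50.4% of those called higher in lateral fruit seeds (636 of 1262). The size of the difference was less common. Among the gene models called higher, the median ratio of lateral replicate 1 to lateral replicate 2 was 1.30. Of these, 5.55% had a ratio at least as large as that of *EBP*, and 11.6% one at least as large as that of *CEJ1*. Among all gene models tested the median ratio was 1.03, and the corresponding shares were 4.54% for *EBP* and 6.48% for *CEJ1*. Lateral replicate 1 is also the shallowest and lateral replicate 2 the deepest of the 6 libraries. The mapped reads of lateral replicate 2 were 2.65 times those of lateral replicate 1. The reads counted on *EBP* were within 1.15-fold of each other in the lateral libraries, and those on *CEJ1* within 1.35-fold. For the genes set beside them below, the range of lateral reads was 1.34-fold for *MdABR1*, 2.08-fold for *MdACO1*, 2.17-fold for *MdETR2* and 2.47-fold for *MdETR102*. The part of sequencing depth in the order of the pools was not tested.

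Set against gene models of like lateral level, the lateral pools differed more in *EBP* than in any other. Its SD of log2(RPKM + 0.5) over the 3 lateral libraries was 0.63, while the median of the 266 gene models of like level was 0.10 and none of them had a larger SD. None of these 266 was as low as *EBP* in central fruit seeds, where their median was 276 RPKM. In a wider window, 0.5 to 2 times the lateral level of *EBP*, 0.311% of 965 gene models had a larger SD. For *CEJ1* the lateral SD was 0.49, and 143 of 3747 gene models of like level (3.82%) exceeded it. Such a spread was not particular to the pair. Of the genes set beside them below that were called higher, *MdABR1* had a lateral SD of 0.48 and *MdACO1* one of 0.18. The gene models nearest in pattern to *EBP* and *CEJ1*, described below, had 0.53 and 0.52, but the measure that found them counts this spread. Counting reads alone would give an SD of log2 RPKM of 0.019 for *EBP* and 0.15 for *CEJ1*, against 0.63 and 0.52 observed without the added constant. In central fruit seeds neither gene stood out. The SD of *EBP* was 0.14, below that of 54.0% of the gene models of like level, and that of *CEJ1* was 0.11, below that of 87.9% of its own. Without the added constant the central SD of *CEJ1* was 0.16, less than the 0.38 that counting alone would give.

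The gene models whose pattern over the 6 libraries was nearest to that of each gene were found by the root mean square difference of log2(RPKM + 0.5), each gene model being centred on its own mean. The nearest to *EBP* was MDP0000290801, at 0.14, where the median of all gene models was 2.34. Its central pools measured 0.909, 1.05 and 0.886 RPKM and its lateral pools 46.5, 21.9 and 31.7 RPKM, the same lateral order at a lower level throughout. Its ratio of means was 35.2, against 26.6 for *EBP*, but its log2 fold change with the added 0.5 RPKM was 4.48, against 4.59. Which of these increases is the larger thus depends on the added constant. The nearest to *CEJ1* was MDP0000241392, at 0.11, whose central pools measured 1.67, 1.34 and 1.21 RPKM and whose lateral pools measured 14.4, 6.77 and 10.02 RPKM. The data at hand pair neither identifier with a name. *CEJ1* itself came 181st in likeness to *EBP* among 37229 gene models, at 1.10, and *EBP* had rank 4874 in likeness to *CEJ1*. This measure counts the size of a change as well as its shape. Ranked by Pearson r, which ignores size, *CEJ1* had rank 67 in likeness to *EBP*, and *EBP* had rank 27 in likeness to *CEJ1*.

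Among the other genes that the paper names by identifier, 1 further AP2/ERF gene, 1 gene of ethylene synthesis and 2 ethylene receptors were set beside the pair. Of these 4 genes, 2 were called higher and 2 lower in lateral fruit seeds (limma, same limits). Among all gene models tested, 3.39% were called higher and 0.459% lower. The 4 genes were chosen with earlier results of these data known, so the count is a description only. *MdABR1* (MDP0000235028), the putative ortholog of an AP2/ERF gene that restrains the response to abscisic acid in *A. thaliana*, measured 1.74, 2.78 and 2.54 RPKM among the central pools and 26.8, 13.6 and 19.8 RPKM among the lateral ones. Its lateral pools stood in the same order as those of *EBP* and *CEJ1*, with 1.97-fold between the extremes, and its log2 fold change, 2.82 with a standard error of 0.25, lay between theirs (adjusted p = 0.00058).

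*MdACO1* (MDP0000195885), which encodes an enzyme of the last step of ethylene synthesis, reached a lateral level near that of *EBP*, at 260 ± 31.4 RPKM against 287 ± 120 RPKM (SD, n = 3 each). The SD of *EBP* exceeds this difference. The spread itself was distributed otherwise. The central pools of *MdACO1* measured 3.08, 30.7 and 15.4 RPKM, a range of 9.96-fold where that of *EBP* was 1.21-fold. Its lateral pools measured 289, 226 and 264 RPKM, a range of 1.28-fold where that of *EBP* was 2.40-fold. In limma it was higher by 4.42 on the log2 scale, with a standard error of 0.64 (adjusted p = 0.0060). With the lane as a covariate its log2 fold change was 4.45, with a standard error of 0.95, and it was no longer called (adjusted p = 0.099).

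The receptor genes went the other way. *MdETR2* (MDP0000219737) measured 22.8, 25.9 and 24.9 RPKM among the central and 9.79, 7.996 and 12.4 RPKM among the lateral pools. Its log2 fold change was -1.26, with a standard error of 0.15 (adjusted p = 0.0021). *MdETR102* (MDP0000920189) measured 31.0, 32.2 and 26.4 RPKM among the central and 18.4, 17.1 and 21.0 RPKM among the lateral pools, and its log2 fold change was -0.65, with a standard error of 0.11 (adjusted p = 0.013). Gene models called lower made up 0.459% of those tested, and lateral values that all lay below all central values 10.9%. For both receptors lateral replicate 3, and not lateral replicate 1, was the highest lateral library. The fall of *MdETR102* was the least firm of these changes. It was not called in 5 of the 16 alternative fits, among them that with the lane as a covariate (log2 fold change -0.50, adjusted p = 0.28) and those without central replicate 1 (-0.62, adjusted p = 0.059) or central replicate 2 (-0.60, adjusted p = 0.051).

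**Figure D5:**
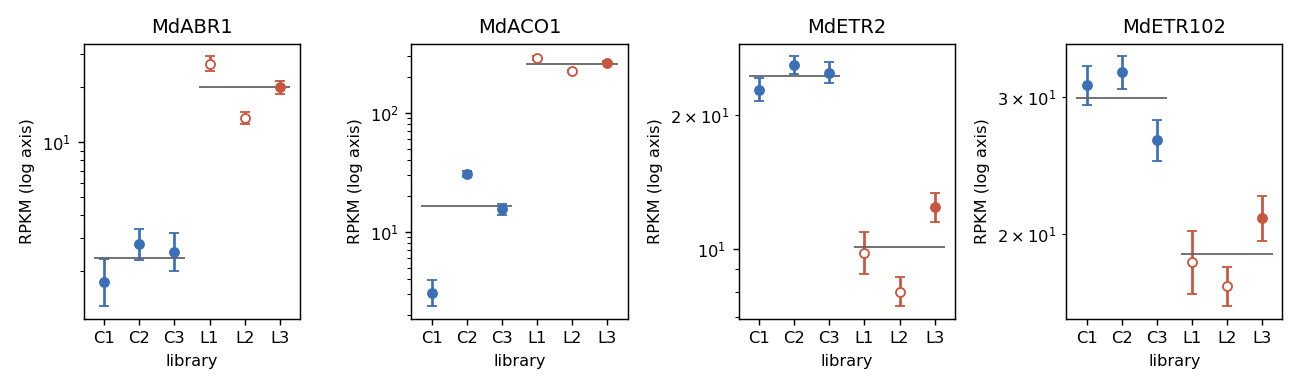
RPKM on log axes, with a range of its own in each panel, of *MdABR1*, *MdACO1*, *MdETR2* and *MdETR102* in the 6 libraries (C central, blue; L lateral, red; open symbols lane 8), with 95% Poisson intervals and group means. The first 2 panels show lateral values above all central ones, the last 2 the reverse, and *MdACO1* is uneven among the central rather than the lateral pools.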

How the data were processed

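RNA of 3 pools of central and 3 pools of lateral fruit seeds at 20 DAPF was analysed, grouped by the labels. RPKM values were deposited by the authors, who checked the reads with FastQC, trimmed them and mapped them to version v1.0 of the Malus x domestica genome. Counting on gene models was done in the CLC Genomics Workbench, whose version is not given in the sources used here. Beyond the division by mapped reads in RPKM, no scaling between libraries was part of the deposited values.

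The 2 genes and the 4 set beside them were chosen with earlier results of these data known. The named gene models are these and, for each of the 2, the one nearest in pattern. limma 3.58.1 (R 4.3.3) was run on log2(RPKM + 0.5) with eBayes and a trend, without a block. The test of the paper's methods was not used. Whole reads were recovered as the shortest gene length, from 60 to 30000 bases, that gave whole numbers in every library within 0.001, using the mapped reads that the paper lists; they amount to 99.4% of the mapped reads. Reads sharing a divisor in all libraries would come out too low by that factor. The steps were tested on simulated data. Ranks, windows of like level (log2 means within 0.32), ratios and exact tests came from scipy 1.17.1, pandas 2.3.3 and numpy 2.4.6 in Python 3.11.15.

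Alternatives were pseudocounts of 0.1 and 1, no filter or one of 1 RPKM, 2 scalings, eBayes without a trend or robust, the replicate number as a block, the lane as a covariate and each library left out. The labels do not say whether equal replicate numbers pair the libraries, and the values gave no sign of it. Gene names are the paper's; the gene table at hand holds none of these identifiers, so positions and sequences were not used here, and the label of the tissue was not checked against marker genes. The qRT-PCR data were not analysed here.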

Additional observations from a re-analysis of the deposited data

How the results depend on the processing

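In limma, the calls of *EBP* and *CEJ1* held in all 16 alternative fits, with log2 fold changes from 4.28 to 4.91 and from 2.12 to 2.73. The number of gene models called higher fell from 1262 to 392 with the lane as a covariate. The number called lower, 171, was 39 with that term, 112 without a filter on low values, 96 with the replicate block and between 93 and 141 with each library left out; which of these gene models were shared was not examined, and the cause was not tested. Deviations of same-numbered libraries from their group means had correlations of 0.012, -0.12 and -0.13. These values gave no sign of pairing by replicate number. The block left both genes called at unchanged fold changes (*EBP* 4.59, *CEJ1* 2.41). The proportion of the 2 genes kept its direction in all 9 alternatives, from 1.71 to 2.18 on the log2 scale, in tests that cannot pass 0.05.

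The share of gene models with a larger increase than *EBP* at like central level ran from 0 to 0.0277% with each library left out. In a wider window of lateral level, 0.5 to 2 times that of *EBP*, 0.311% of 965 gene models had lateral pools more widely spread than *EBP*. The order of the lateral pools seen in the pair was found in 26.9% of the gene models tested after scaling to a common total and in 20.2% after scaling by the median of ratios, and in both genes it was the same under either scaling. The nearest gene models depended on the measure: by Pearson r the one nearest to *EBP* came 14th and the one nearest to *CEJ1* also 14th, and with a pseudocount of 0.1 that of *EBP* had rank 3. Depth limits *CEJ1* most, with 14 to 16 reads in each central library.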
